A study of Mus musculus with 16 samples.

Results

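The 10 genes described here (*Cd68*, *Lyz2*, *C1qa*, *C1qb*, *C1qc*, *Csf1r*, *Adgre1*, *Mrc1*, *Ptprc* and *Cd74*) are widely used to recognise macrophages and other leukocytes. They were taken by name from the 55487 genes of an RNA-seq count table of fetal mouse urogenital sinus (UGS) epithelium, and each name matched 1 gene. The prostate grows out of the UGS as buds of its epithelium. Its epithelium was collected on embryonic day E16.75 from male C57BL/6J fetuses, after enzymatic digestion and removal of the surrounding mesenchyme by dissection. Pregnant dams had received a single oral dose of TCDD (dioxin), a long-lived ligand of the aryl hydrocarbon receptor (AHR), or corn oil vehicle (5 ml/kg). The dose of TCDD was 5 µg/kg by the sample labels and 1 µg/kg by the general description of the series. The day of dosing was E13.5 by the labels, with a later day in another passage of the study. There were 4 TCDD pools and 4 vehicle pools, each made from 5 or 6 epithelia and sequenced on 2 lanes, so that a replicate was a pool and not a fetus. The labels do not say which litters entered a pool.

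Macrophages reach fetal organs early, from yolk sac and fetal liver progenitors, and remain in them as resident cells that clear dying cells and remodel tissue. They depend on signals through CSF1R, degrade what they engulf in lysosomes rich in CD68 and lysozyme, and are a main source of C1q, the recognition protein of the classical complement pathway. PTPRC, also called CD45, is carried by nearly all leukocytes, and CD74 accompanies MHC class II molecules. A bulk library holds the RNA of all cells in the pool, and fewer or more cells of a type cannot be told apart from less or more RNA per cell.

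Promoter sequences are shown for *Cd68* and *Lyz2*, which rose with TCDD, for *C1qb* and *C1qc*, whose sister gene *C1qa* rose, and for *Mrc1*, which held steady, because genes of 1 cell type are often read by the same transcription factors. They come from RefSeq (GRCm38.p6), run 5′ to 3′ on the gene's strand, lie within 250 bases before the RefSeq start and are cut where the annotated gene begins. Of the 8 members looked up (all but *Csf1r* and *Cd74*), 6 had a RefSeq promoter, and *C1qa* and *Adgre1* did not match. Capitals mark AGGAAGT or its reverse complement ACTTCCT, a core read by ETS factors such as PU.1, the myeloid master regulator.
Cd68 (chr11:69666171-69666420, minus strand): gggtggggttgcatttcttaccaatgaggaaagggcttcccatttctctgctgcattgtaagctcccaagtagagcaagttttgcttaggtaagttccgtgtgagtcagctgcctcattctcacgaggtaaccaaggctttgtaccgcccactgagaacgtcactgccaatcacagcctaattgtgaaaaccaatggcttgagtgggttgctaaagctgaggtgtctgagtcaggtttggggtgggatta
Lyz2 (chr10:117282322-117282522, minus strand): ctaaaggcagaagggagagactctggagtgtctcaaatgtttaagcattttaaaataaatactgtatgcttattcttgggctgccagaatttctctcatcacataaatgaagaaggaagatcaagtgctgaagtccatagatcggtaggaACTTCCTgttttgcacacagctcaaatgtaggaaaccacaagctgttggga
C1qb (chr4:136886201-136886450, minus strand): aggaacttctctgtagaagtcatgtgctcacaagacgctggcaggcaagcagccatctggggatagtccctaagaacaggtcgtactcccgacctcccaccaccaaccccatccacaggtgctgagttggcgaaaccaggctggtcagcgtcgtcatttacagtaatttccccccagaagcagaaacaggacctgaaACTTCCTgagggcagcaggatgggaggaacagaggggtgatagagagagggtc
C1qc (chr4:136893066-136893164, minus strand): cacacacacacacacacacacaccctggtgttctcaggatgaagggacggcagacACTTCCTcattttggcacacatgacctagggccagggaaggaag
Mrc1 (chr2:14229164-14229391, plus strand): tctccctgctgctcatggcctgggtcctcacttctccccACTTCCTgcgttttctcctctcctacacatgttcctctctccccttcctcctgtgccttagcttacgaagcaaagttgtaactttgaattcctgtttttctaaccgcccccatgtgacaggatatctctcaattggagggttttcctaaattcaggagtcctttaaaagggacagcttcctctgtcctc

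The ETS core stood in the 250-base window of 5 of the 6 genes (*Lyz2*, *C1qb*, *C1qc*, *Mrc1* and *Ptprc*) and in 7.69% of the 32851 promoter windows of the table. It began 100 bases before the RefSeq start of *Lyz2*, 53 before that of *C1qb*, 195 before that of *C1qc* and 211 before that of *Mrc1*. The printed sequences of *Lyz2*, *C1qc* and *Mrc1* are cut and end before that start. These letters were not in the *Cd68* window. The motif was chosen after these sequences had been read, so its share is a description. The core of the AHR binding site (GCGTG or CACGC), searched on both strands in the same windows, was in none of the windows of these 6 genes and in 28.2% of all windows.

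The pools held 22254896 to 26740656 counted read pairs in the TCDD group and 25917911 to 28146766 in the vehicle group over both lanes. Levels are given below as CPM, read pairs of a gene relative to all counted read pairs of the pool, scaled by TMM over all 8 pools. The study removed 1 TCDD pool as an outlier without naming it. TCDD replicate 1 was taken to be that pool, since it is the only one that the labels do not link to the study's comparison tables, and it also stood apart in these counts, with a chi-square per gene of 32 to 49 against the other TCDD pools, which differed among themselves by 13.3 to 20.3. Tests were therefore run on 7 pools (TCDD replicates 2 to 4 and vehicle replicates 1 to 4) with edgeR's quasi-likelihood F-test, the result over all 8 pools is given beside them, and TCDD replicate 1 is given with each level. *Cyp1a1*, the standard reporter of AHR activation, was at 130 to 241 CPM in the 4 TCDD pools and at 0.072 CPM or less in the vehicle pools, so that no pool went against its label. Summed levels of 10 epithelial markers were 9460 to 10600 CPM in TCDD replicates 2 to 4, 10500 CPM in TCDD replicate 1 and 8470 to 8780 CPM in vehicle. In the 7-pool test 4 of them (*Krt8*, *Krt18*, *Krt19* and *Cldn4*) were higher with TCDD. The other 6 did not pass, among them *Krt5* and *Cdh1* (log2 fold changes −0.04 and 0.01).

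All 10 genes were detected in every pool, at low levels. Their summed level was 46.2, 43.0 and 29.3 CPM in TCDD replicates 2 to 4 and 26.4 CPM in replicate 1, against 18.3, 31.5, 24.6 and 32.6 CPM in vehicle replicates 1 to 4. Sums of the TCDD and vehicle pools overlapped. Of the 10 genes, 9 had enough counts to be tested over 7 pools, and 3 of them, *Cd68*, *Lyz2* and *C1qa*, were higher with TCDD at an adjusted p of 0.05 (Benjamini-Hochberg over all 14233 tested genes), while none was lower and 6 did not pass. In the same fit 11.9% of the tested genes rose with TCDD and 11.2% fell. With all 8 pools, 8 of the 10 were tested and 1, *Cd68*, passed, where 7.41% of 14051 tested genes were higher. The median log2 fold change of the tested members was 0.66 over 7 pools and 0.54 over 8, and that of all tested genes was 0.00 in both. By ranges, all TCDD pools lay above all vehicle pools for 3 members over 7 pools, against 16.1% of the tested genes, and for *Cd68* alone over 8 pools, against 10.1%. TREAT, which asks for more than a 1.5-fold change, called none of the members and 2.59% of the tested genes as higher.

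**Figure D1:**
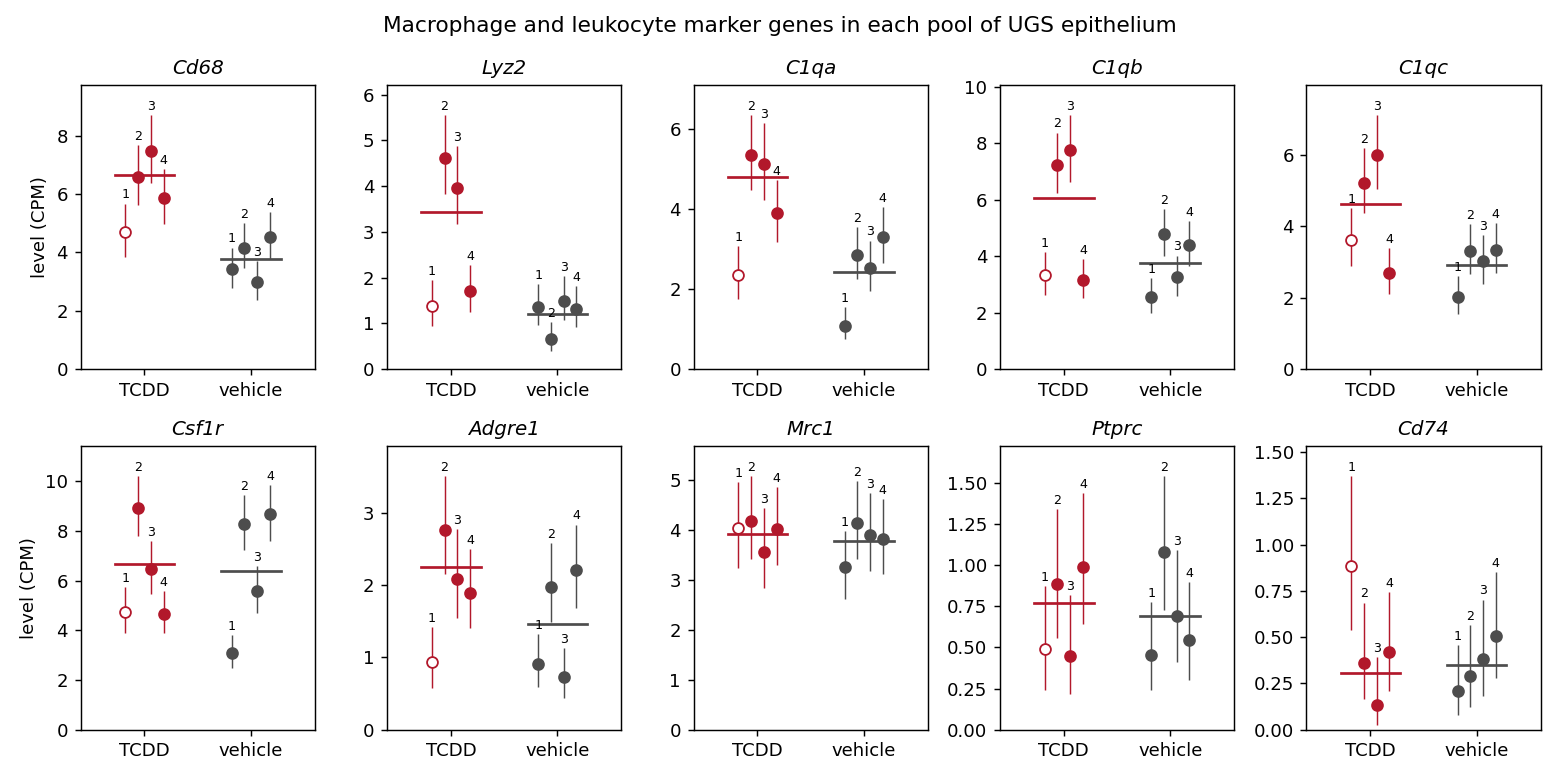
Level of each of the 10 marker genes (CPM, linear axis from 0) in TCDD pools (red) and vehicle pools (grey), with the replicate number over each point. Vertical lines are exact 95% Poisson intervals, which cover counting error only, horizontal lines are the means of TCDD replicates 2 to 4 and of vehicle, and the open point is TCDD replicate 1, which was left out of the 7-pool test. *Cd68*, *Lyz2* and *C1qa* have all filled red points above all grey ones, and *Csf1r* and *Mrc1* do not.

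*Cd68* encodes a heavily glycosylated membrane protein of macrophage lysosomes and late endosomes (ENSMUSG00000018774, chr11:69664213-69666153, minus strand). It was at 6.59, 7.48 and 5.87 CPM in TCDD replicates 2 to 4 and at 4.69 CPM in replicate 1, against 3.42, 4.17, 2.98 and 4.53 CPM in vehicle replicates 1 to 4. All 4 TCDD pools lay above all 4 vehicle pools, although replicate 1 exceeded the highest vehicle pool by less than their counting intervals (3.84 to 5.68 CPM and 3.77 to 5.4 CPM). The means were 6.65 ± 0.808 CPM in TCDD (SD, n = 3) and 3.78 ± 0.703 CPM in vehicle (SD, n = 4). The fitted change was 1.75-fold, a log2 fold change of 0.81 (SE 0.184) with an adjusted p of 0.00548. *Cd68* was the only member that also passed over 8 pools, with a log2 fold change of 0.70 and an adjusted p of 0.0329.

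*Lyz2* encodes lysozyme, the enzyme of phagocytes that cleaves bacterial cell walls (ENSMUSG00000069516, chr10:117277331-117282321, minus strand). Its levels were 4.62, 3.96 and 1.70 CPM in TCDD replicates 2 to 4 and 1.37 CPM in replicate 1, against 1.36, 0.648, 1.49 and 1.31 CPM in vehicle. Replicates 2 and 3 stood clear of every other pool. Replicate 4 was only just above the highest vehicle pool, and replicate 1 lay among the vehicle pools. It averaged 3.43 ± 1.53 CPM in TCDD (SD, n = 3) and 1.20 ± 0.377 CPM in vehicle (SD, n = 4), with the largest fitted change of the 9 tested members, 2.82-fold (log2 fold change 1.5, SE 0.352, adjusted p = 0.00747). Over 8 pools it did not pass (log2 fold change 1.27, adjusted p = 0.0666).

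The 3 chains of C1q are encoded by neighbouring genes on the minus strand of chromosome 4 (*C1qb* at 136880129-136886187, *C1qc* at 136889804-136893065 and *C1qa* at 136895917-136898803) and assemble into 1 protein that binds immune complexes and dying cells. *C1qa* (ENSMUSG00000036887) was at 5.35, 5.12 and 3.90 CPM in TCDD replicates 2 to 4 and at 2.35 CPM in replicate 1, against 1.08, 2.84, 2.52 and 3.3 CPM in vehicle. The 3 TCDD pools of the test lay above all vehicle pools, whereas replicate 1 was below 3 of them. It averaged 4.79 ± 0.778 CPM in TCDD (SD, n = 3) and 2.44 ± 0.957 CPM in vehicle (SD, n = 4), a 1.96-fold change (log2 fold change 0.97, SE 0.287, adjusted p = 0.0256) that did not pass over 8 pools (0.78, adjusted p = 0.153).

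*C1qb* (ENSMUSG00000036905) was at 7.24, 7.75 and 3.14 CPM in TCDD replicates 2 to 4 and at 3.32 CPM in replicate 1, against 2.55, 4.79, 3.25 and 4.39 CPM in vehicle. *C1qc* (ENSMUSG00000036896) had 5.23, 6.01 and 2.69 CPM in TCDD replicates 2 to 4 and 3.63 CPM in replicate 1, against 2.03, 3.31, 3.02 and 3.34 CPM in vehicle. Both chains were high in TCDD replicates 2 and 3 and within the vehicle range in replicate 4. Neither passed the test, with log2 fold changes of 0.68 for *C1qb* (SE 0.306, adjusted p = 0.142) and 0.66 for *C1qc* (SE 0.27, adjusted p = 0.1). Without TCDD replicate 4 both did, with an adjusted p of 0.0139 for *C1qb* and 0.0184 for *C1qc*. At 1.96 SE the intervals of the 3 chains overlapped, the differences between them were not tested, and a pass of *C1qa* alone does not show that it changed more than the other chains.

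*Csf1r* encodes the receptor for the growth factors CSF1 and IL34, on which most tissue macrophages depend (ENSMUSG00000024621, chr18:61100598-61132149, plus strand). It was at 8.93, 6.46 and 4.66 CPM in TCDD replicates 2 to 4 and at 4.74 CPM in replicate 1, against 3.07, 8.28, 5.58 and 8.67 CPM in vehicle. Both groups covered about the same range, with vehicle replicates 2 and 4 as high as the highest TCDD pool within counting error. The means were 6.68 ± 2.14 CPM in TCDD (SD, n = 3) and 6.40 ± 2.61 CPM in vehicle (SD, n = 4). The log2 fold change was 0.06 (SE 0.353, adjusted p = 0.93), with an interval of −0.63 to 0.75 at 1.96 SE, which a change of the size of *Cd68* would just exceed. Its sign turned over 8 pools (−0.05, adjusted p = 0.948).

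*Adgre1* encodes F4/80, a surface receptor used to stain mouse macrophages (ENSMUSG00000004730, chr17:57358691-57483527, plus strand). Levels were 2.77, 2.09 and 1.89 CPM in TCDD replicates 2 to 4 and 0.93 CPM in replicate 1, against 0.908, 1.98, 0.727 and 2.21 CPM in vehicle. Vehicle replicates 2 and 4 reached into the TCDD range, and the test was not passed (log2 fold change 0.62, SE 0.352, adjusted p = 0.235). *Mrc1* encodes the mannose receptor CD206, an endocytic receptor of tissue-resident macrophages (ENSMUSG00000026712, chr2:14229392-14332057, plus strand). It was at 4.18, 3.56 and 4.02 CPM in TCDD replicates 2 to 4 and at 4.03 CPM in replicate 1, against 3.25, 4.14, 3.90 and 3.81 CPM in vehicle. It was the steadiest member over the pools (log2 fold change 0.06, SE 0.182, adjusted p = 0.864), and its interval of −0.30 to 0.41 at 1.96 SE left out the fitted changes of *Cd68*, *Lyz2* and *C1qa*. The difference between the changes of these genes was not tested.

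*Ptprc* (ENSMUSG00000026395, chr1:138062861-138175708, minus strand) had 10 to 30 read pairs per pool. It was at 0.885, 0.445 and 0.985 CPM in TCDD replicates 2 to 4 and at 0.487 CPM in replicate 1, against 0.454, 1.08, 0.688 and 0.544 CPM in vehicle. The groups overlapped fully (log2 fold change 0.18, SE 0.399, adjusted p = 0.797). The interval of −0.61 to 0.96 at 1.96 SE takes in both no change and a change as large as that of *Cd68*. *Cd74*, the invariant chain of MHC class II (ENSMUSG00000024610, chr18:60803848-60812652, plus strand), had 81 read pairs in all 8 pools and was too low to be tested. It was at 0.362, 0.134 and 0.417 CPM in TCDD replicates 2 to 4 and at 0.886 CPM in replicate 1, against 0.21, 0.288, 0.382 and 0.508 CPM in vehicle, so that TCDD replicate 1 was the highest pool. A microRNA gene, *Mir5107*, overlaps *Cd74* on the same strand, and read pairs that could not be assigned to either gene alone were not counted.

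**Figure D2:**
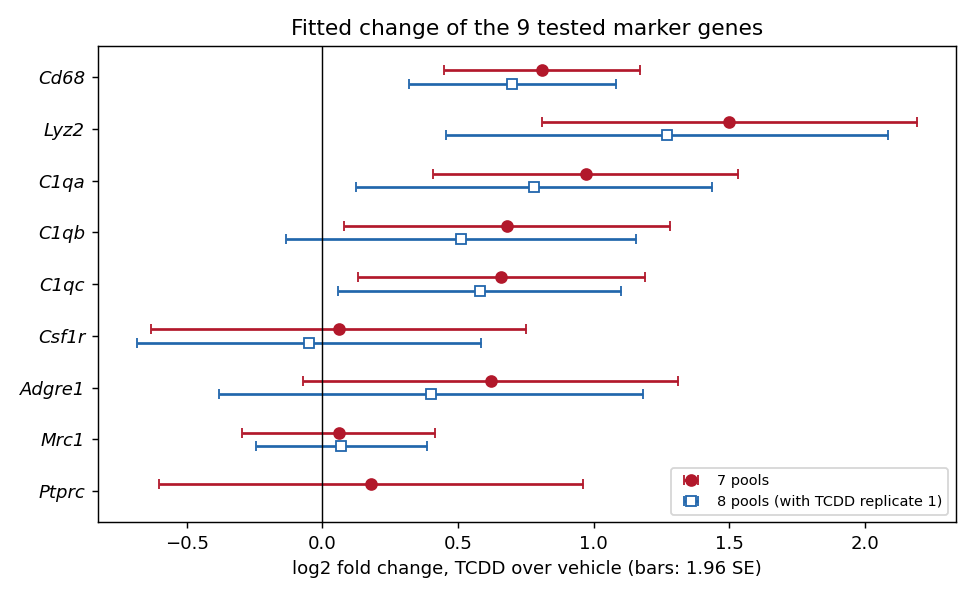
Log2 fold change of TCDD over vehicle for the 9 tested marker genes in the 7-pool fit (red circles) and in the 8-pool fit with TCDD replicate 1 (blue squares, no value for *Ptprc*, which was not tested there), with bars of 1.96 SE. *Lyz2* is farthest to the right at 1.5 and *Csf1r* and *Mrc1* sit at 0.06, and of the 8 genes fitted both ways only *Mrc1* has its 8-pool value above its 7-pool value.

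Among the members, the spread over pools also differed. Set against counting noise, which gives a variance ratio near 1, the ratio among vehicle pools was 29.9 for *Csf1r*, 10.7 for *C1qa* and 10.5 for *Adgre1*, but 1.06 for *Mrc1*. Among TCDD replicates 2 to 4 it was 27.1 for *C1qb*, 17.8 for *Lyz2*, 17.6 for *Csf1r* and 16.6 for *C1qc*, but 0.607 for *Mrc1*. Between the 2 lanes of a pool it was 0.305 to 1.26 over the 10 genes, so the spread lay between pools and not between lanes. Vehicle replicate 1 was the lowest vehicle pool for 7 of the 10 genes and vehicle replicate 4 the highest for 6. TCDD replicate 2 was the highest TCDD pool for 5 genes and replicate 3 for 3.

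The read pairs of *Csf1r*, the member with the widest spread among vehicle pools, were used as a yardstick within each pool. There were 2.00, 2.92 and 2.09 C1q read pairs (3 chains summed) per *Csf1r* read pair in TCDD replicates 2 to 4 and 1.96 in replicate 1, against 1.84, 1.32, 1.58 and 1.27 in vehicle. All 4 TCDD pools lay above all vehicle pools, with replicate 1 close to vehicle replicate 1. *Cd68* gave 0.739, 1.16 and 1.26 read pairs per *Csf1r* read pair in TCDD replicates 2 to 4 and 0.991 in replicate 1, against 1.11, 0.504, 0.534 and 0.523 in vehicle. *Lyz2* gave 0.518, 0.614 and 0.366 in TCDD replicates 2 to 4 and 0.29 in replicate 1, against 0.443, 0.0783, 0.267 and 0.151 in vehicle. For *Cd68* and *Lyz2* it was vehicle replicate 1, the pool with the lowest *Csf1r* level, that reached into the TCDD range. These ratios were computed after the levels had been seen and carry no test.

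**Figure D3:**
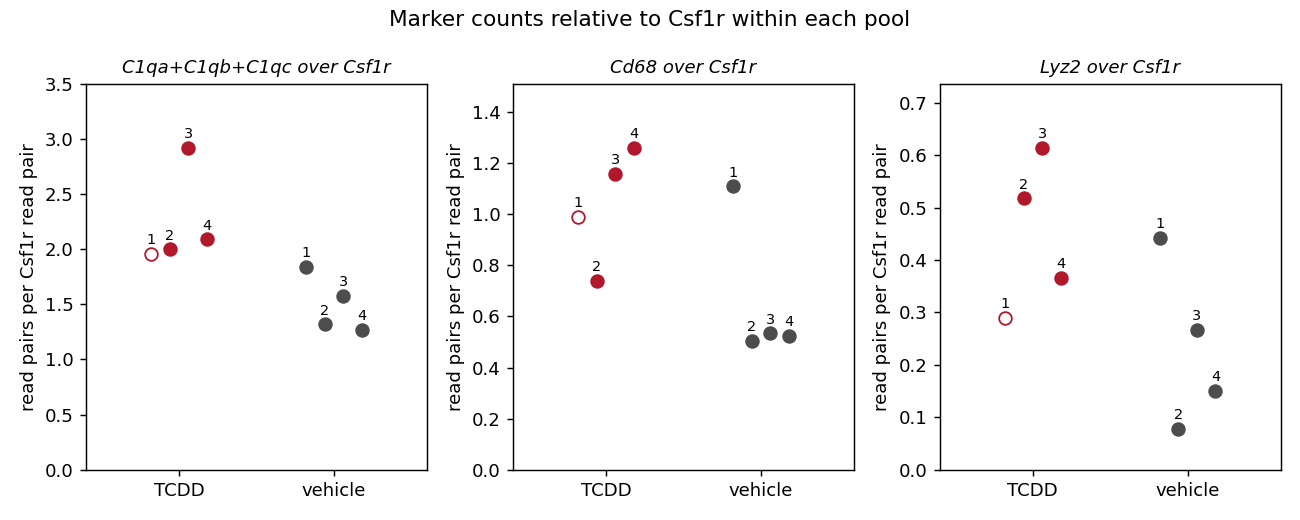
Read pairs of the 3 C1q chains together (left), *Cd68* (middle) and *Lyz2* (right) per *Csf1r* read pair in each TCDD pool (red, open for replicate 1) and vehicle pool (grey), with replicate numbers over the points and linear axes from 0. The C1q ratio is 1.96 to 2.92 in TCDD pools and 1.27 to 1.84 in vehicle pools, and vehicle replicate 1 is the highest vehicle pool in all 3 panels.

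Levels of different genes can be compared only per length, as CPM per kilobase of exon. In TCDD replicates 2 to 4 the order was *C1qb* (5.55), *Cd68* (5.29), *C1qa* (4.61), *Lyz2* (2.61), *C1qc* (2.4), *Csf1r* (1.16), *Adgre1* (0.696), *Mrc1* (0.615), *Cd74* (0.181) and *Ptprc* (0.0421), as mean CPM per kilobase. In vehicle it was *C1qb* (3.44), *Cd68* (3.00), *C1qa* (2.34), *C1qc* (1.51), *Csf1r* (1.11), *Lyz2* (0.913), *Mrc1* (0.593), *Adgre1* (0.45), *Cd74* (0.207) and *Ptprc* (0.0378). Most neighbours overlapped over pools. The exceptions were *Cd74* and *Ptprc* in both groups and, in TCDD alone, *C1qa* and *Lyz2* and also *Mrc1* and *Cd74*. The length takes in every annotated exon of a gene, 18313 bases for *Ptprc* and 1679 for *Cd74*, and a single transcript can be shorter. The last place of *Ptprc* and its gap to *Cd74* therefore hold for this length only. *Lyz2* stood behind *C1qc* and *Csf1r* in vehicle and ahead of them in TCDD.

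Other genes of the macrophage programme mostly did not pass or were too low to be tested. Of 36 further macrophage genes, 16 were tested, 1 was higher, 1 was lower and 14 did not pass, with a median log2 fold change of 0.34. Of all 14233 tested genes 11.9% were higher and 11.2% lower, the shares to set beside the 7-pool counts of this and the following lists. *Stab1*, a scavenger receptor of resident macrophages and sinusoidal endothelium, was higher at 6.75 ± 1.54 CPM in TCDD (SD, n = 3) and 3.87 ± 0.999 CPM in vehicle (SD, n = 4), with a log2 fold change of 0.80 and an adjusted p of 0.0164, and it also passed over 8 pools (0.73, adjusted p = 0.0464). *Hpgds*, a prostaglandin D2 synthase, was lower at 9.12 ± 0.517 CPM in TCDD and 12.5 ± 2.1 CPM in vehicle (adjusted p = 0.0323). It missed the threshold with all 8 pools (adjusted p = 0.0883). *Cd14*, the co-receptor for bacterial lipopolysaccharide, was at 5.07 ± 0.518 CPM in TCDD and 3.47 ± 0.766 CPM in vehicle and did not pass (log2 fold change 0.54, adjusted p = 0.073). *Cd163*, *Timd4* and *Marco*, scavenger receptors of some resident macrophages, had 0 counts in all pools.

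Of 18 further genes shared by most leukocytes, 13 were tested, 1 was higher and 12 did not pass, with a median log2 fold change of 0.11. The gene that rose was *Arhgdib*, at 48.7 ± 4.9 CPM in TCDD (SD, n = 3) and 20.3 ± 1.06 CPM in vehicle (SD, n = 4), a log2 fold change of 1.26 (adjusted p = 4.43e-07). *Lcp1*, the actin bundler L-plastin, was at 94.0 ± 10.2 CPM in TCDD and 105 ± 7.62 CPM in vehicle and did not pass (adjusted p = 0.215). Of 11 myeloid transcription factors, 8 were tested and 1, *Runx1*, a regulator of blood cell formation, was higher (log2 fold change 0.63, adjusted p = 0.000269), while the list's median was 0.04. *Spi1*, which encodes PU.1, had 93 counts in all pools and was not tested. *Runx1* was at 86.4 CPM in TCDD and 55.6 CPM in vehicle, and *Ptprc* at 0.772 and 0.691 CPM (means, not corrected for gene length). *Arhgdib*, *Lcp1* and *Runx1* thus stood far above *Ptprc*, and which cells of a pool carried them was not tested.

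Of the ligands that support, attract or contact macrophages, 3 were lower, 1 (*Cd47*, a contact ligand) was higher and the rest did not pass or were too low to be tested. *Csf1*, which feeds *Csf1r* signalling, was at 11.6 ± 1.05 CPM in TCDD (SD, n = 3) and 13 ± 1.23 CPM in vehicle (SD, n = 4) and did not pass (log2 fold change −0.16, adjusted p = 0.377), and *Il34*, the other CSF1R ligand, had 38 counts in all pools. Of 9 recruiting and contact ligands 4 were tested, and 3 were lower and 1 higher. *Cxcl12*, a chemokine for CXCR4-bearing cells, was at 3.44 ± 0.922 CPM in TCDD and 6.78 ± 1.35 CPM in vehicle (log2 fold change −0.99, adjusted p = 0.00475). *Cx3cl1*, the membrane-bound chemokine fractalkine, was at 46.2 ± 5.71 CPM in TCDD and 63.9 ± 3.5 CPM in vehicle (−0.47, adjusted p = 0.00169). *Mif*, a cytokine that binds CD74, was at 392 ± 54.6 CPM in TCDD and 540 ± 95.6 CPM in vehicle (−0.46, adjusted p = 0.0399). TCDD replicate 1 was at 727 CPM, and *Mif* missed the threshold with all 8 pools (adjusted p = 0.69). *Cd47*, which restrains engulfment by macrophages, was higher at 39.0 ± 3.0 CPM in TCDD and 30.2 ± 1.93 CPM in vehicle (0.37, adjusted p = 0.00695).

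The companions of C1q and CD74 were scarce. Of 5 partners of C1q in the classical pathway, only *Serping1*, which encodes the C1 inhibitor, was tested, and it did not pass (log2 fold change −0.39, adjusted p = 0.436). Of 7 MHC class II genes 3 were tested, and *H2-Ab1*, a class II beta chain, was lower at 1.41 ± 0.303 CPM in TCDD (SD, n = 3) and 2.67 ± 0.958 CPM in vehicle (SD, n = 4), with a log2 fold change of −0.93 and an adjusted p of 0.043. TCDD replicate 1 was at 4.16 CPM, and with all 8 pools *H2-Ab1* missed the threshold (adjusted p = 0.621).

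Of 13 lysosome genes that most cells express, all were tested, 4 were higher, 2 were lower and 7 did not pass, with a median log2 fold change of 0.10. *Ctsd*, the protease cathepsin D, was at 490 ± 27.6 CPM in TCDD (SD, n = 3) and 272 ± 24 CPM in vehicle (SD, n = 4), a log2 fold change of 0.85 (adjusted p = 4.08e-06) close to that of *Cd68*. *Ctsl*, cathepsin L, was lower at 70.5 ± 5.89 CPM in TCDD and 129 ± 23.6 CPM in vehicle, a log2 fold change of −0.88 (adjusted p = 0.000428). Lysosome genes thus went up and down in the same pools in which *Cd68* and *Lyz2* rose, and which cells of a pool carried these transcripts was not tested.

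**Figure D4:**
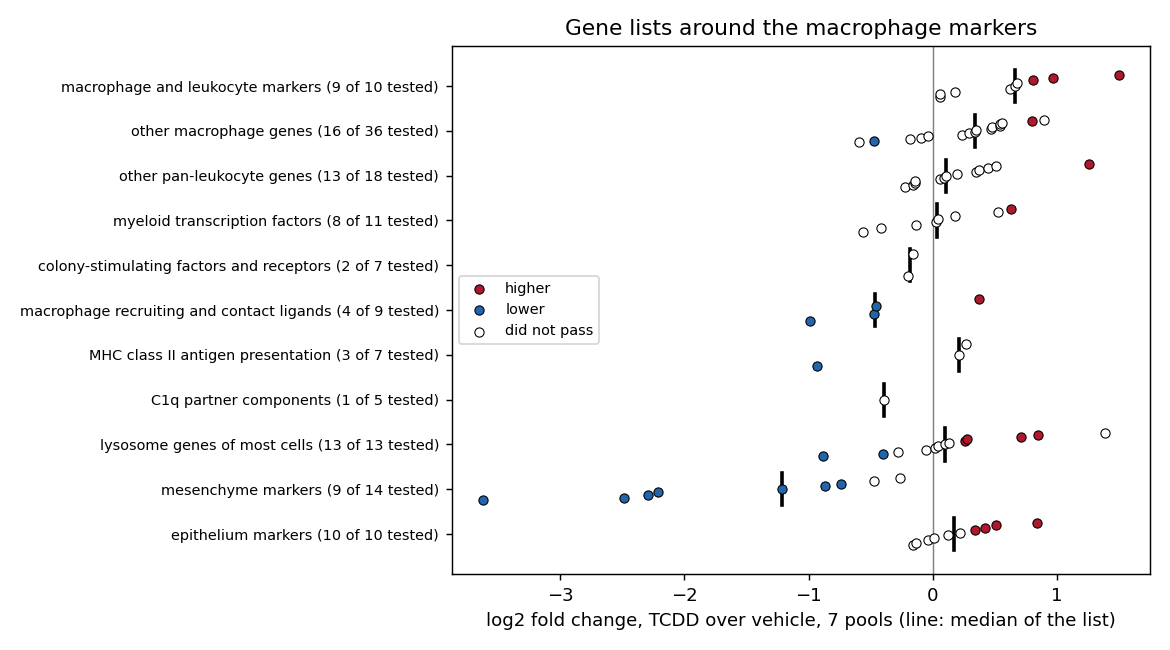
Log2 fold change of TCDD over vehicle (7 pools) for every tested gene of the marker genes and of 10 companion lists, 1 point per gene, filled red where higher, blue where lower and open where the test was not passed, with a black line at each list's median. The line of the marker genes is at 0.66, that of the other macrophage genes at 0.34 and that of the mesenchyme markers at −1.21.

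Most markers of other leukocytes were at or near 0, and *Kit* stood well above the rest. Of 9 neutrophil markers none was tested and 5 (among them *S100a8*, *Mpo* and *Elane*) had 0 counts in every pool, with a summed level of 0.114 to 0.563 CPM in TCDD replicates 2 to 4, 0 CPM in replicate 1 and at most 0.144 CPM in vehicle. Of 11 T and NK cell markers none was tested and 4 had 0 counts, with sums of 0.322 to 0.53 CPM in TCDD replicates 2 to 4, 0.753 CPM in replicate 1 and 0.468 to 0.69 CPM in vehicle. Of 7 B cell markers none was tested, with sums of 0.53 to 0.925 CPM in TCDD replicates 2 to 4, 0.266 CPM in replicate 1 and 0.594 to 1.44 CPM in vehicle. Of 8 dendritic and Langerhans cell markers 5, *Cd207* and *Flt3* among them, had 0 counts. *Zbtb46*, the only gene of these that was tested, was at 0.80 ± 0.512 CPM in TCDD (SD, n = 3) and 0.837 ± 0.411 CPM in vehicle (SD, n = 4). It did not pass (adjusted p = 0.897). Of 7 mast cell markers 6 had 0 counts. The seventh was *Kit*, a receptor that mast cells share with other cell types, at 54.5 ± 5.52 CPM in TCDD (SD, n = 3) and 62.6 ± 12.6 CPM in vehicle (SD, n = 4), and it did not pass (adjusted p = 0.367).

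Mesenchymal RNA moved with the groups in the opposite direction. Of 14 mesenchyme markers 9 were tested, 7 were lower with TCDD and none was higher, and their summed level was 94.4 to 99.2 CPM in TCDD replicates 2 to 4, 179 CPM in replicate 1 and 167 to 225 CPM in vehicle. With all 8 pools 3 of the 9 were lower, where 843 of 14051 tested genes were lower. *Col3a1*, a fibrillar collagen chain, was at 7.40 ± 0.888 CPM in TCDD (SD, n = 3) and 36.2 ± 8.71 CPM in vehicle (SD, n = 4). In TCDD replicate 1, left out of this mean, it was at 24.0 CPM. TCDD replicate 1, the pool whose summed mesenchyme level fell among those of vehicle, was the lowest TCDD pool for 4 members (*Cd68*, *Lyz2*, *C1qa* and *Adgre1*). Replicate 3 was the lowest for 3 members and replicate 4 for 3, and replicate 1 was the highest TCDD pool for *Cd74*. The part of residual mesenchyme in the levels of the 10 genes was not tested.

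Over 8 pools, with each group's mean taken out, the 8 members with enough counts were compared for their common up and down from pool to pool. Their mean deviation was 0.39, 0.29 and −0.25 log2 units in TCDD replicates 2 to 4 and −0.43 in replicate 1, and −0.38, 0.17, −0.08 and 0.29 in vehicle replicates 1 to 4. Pearson's r between members ran from −0.33 for *Mrc1* with *Lyz2* to 0.94 for *C1qb* with *C1qc*, and was 0.91 for *Adgre1* with *Cd68* and 0.89 for *Csf1r* with *C1qa*. Of 14043 other genes, those most like the mean of the members were *Ephx3* (r = 0.975), *Ly6g6c* (0.969), *Btbd6* (0.955), *Mif4gd* (0.951), *Eps8l1* (0.95), *Plpp2* (0.948), *Rab25* (0.947), *Rnh1* (0.946), *Ly6g6e* (0.943) and *Nans* (0.938). None of these 10 is in the leukocyte lists, whose nearest genes were *Ctss*, the macrophage protease cathepsin S (r = 0.883, rank 63), and *Cd14* (r = 0.875, rank 82). The pools share depth and dissection, and r over 8 pools among many genes is a description only.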

How the data were processed

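The authors trimmed the read pairs with Skewer 0.2.2, used HISAT2 2.1.0 for alignment to GRCm38.p6 and counted pairs per gene over Ensembl annotation 100 exons on the gene's own strand (HTSeq 0.12.4), dropping pairs with several alignments. The deposited table holds these counts, not normalised, per gene and lane, and its lines that name no gene (17.4% to 20.1% of pairs) were left out. The deposited comparison tables (fold changes, p-values and F statistics made by the authors with edgeR 3.30.3) were not used. Because multi-mapped pairs were dropped, *Lyz2* may lose pairs shared with its near-identical neighbour *Lyz1*.

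Lanes were averaged per pool, and lanes of a pool differed by no more than counting noise (chi-square per gene 0.995 to 1.03). Genes were filtered with filterByExpr (minimum count 10, minimum total 15), scaled by TMM and tested with edgeR 4.0.16 in R 4.3.3 (quasi-likelihood F-test, robust, legacy method), with no covariate and a Benjamini-Hochberg threshold of 0.05 over all tested genes. DESeq2 1.42.0 and TREAT against a 1.5-fold change were alternatives. Standard errors come from the log2 fold change and the F statistic. Exact Poisson intervals (95%) cover counting error only. Log2 levels for the comparison of pools used an offset of 0.5 CPM. Replicates are pools, and nothing states whether pools shared litters. The p-values set the difference between groups against the spread between these pools. They take the pools as independent, which could not be checked. On simulated data tested for the 7 pools (14078 genes), the fit recovered 74%, 96%, 94% and 98% of genes changed 1.5-, 2-, 4- and 8-fold, and 3.21% of its calls were false. The simulation changed genes drawn from all levels and gave every gene the same dispersion (0.00845). The members are low in count, and several spread far beyond counting noise between pools (ratio 29.9 for *Csf1r* among vehicle pools). The simulated shares may therefore not hold for them.

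Gene coordinates and exon lengths are from GENCODE vM21 (GRCm38). All 222 listed genes, members included, were found in the table. The members and lists were chosen with earlier results of these data known. Genes named from a list are up to 4 with the smallest adjusted p and up to 3 with the highest count, and *Csf1*, *Il34* and *Mif* always. The markers named for having 0 counts, *Spi1* and the ratios to *Csf1r* were chosen after their values were seen. Values of a listed lysosome gene are not reported here.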

Additional observations from a re-analysis of the deposited data

How the results depend on the processing

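The call of 3 members (3276 genes in all) kept its count under 7 alternatives: other scalings (RLE, upper quartile, none), a minimum count of 20, DESeq2, summed lanes and edgeR 4's own method. It moved to 5 without a filter on low counts, where *C1qb* and *C1qc* joined, to 1 with all 8 pools (1884 genes in all) and to 0 by TREAT against 1.5-fold (573 genes, and over 8 pools 0 members and 193 genes). Leaving out 1 pool of the 7 gave 2 to 5 members and 2250 to 3214 genes. *C1qa* lost its call without TCDD replicate 2 (adjusted p = 0.0857), TCDD replicate 3 (0.0857) or vehicle replicate 3 (0.0598), and *C1qb* and *C1qc* gained theirs without TCDD replicate 4. Leaving out 1 pool of the 8, an alternative chosen after seeing the data, gave 0 members, or 1 without vehicle replicate 4, and 1353, 1281 and 1284 genes without TCDD replicates 2, 3 and 4, and 1325, 1380, 1282 and 1468 without vehicle replicates 1 to 4. Over all 27 alternatives the log2 fold change was 0.60 to 0.90 for *Cd68* (past the threshold in 19), 0.95 to 1.83 for *Lyz2* (16) and 0.52 to 1.15 for *C1qa* (13). *Csf1r* was positive in 16 and negative in 11. The cause of these moves was not tested.

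Pools of equal replicate number were not consistently alike: the correlations of deviations were −0.141, −0.0731 and −0.0553 over 7 pools, and 0.37, −0.0578, −0.15 and 0.134 for numbers 1 to 4 over 8. Unequal numbers gave −0.377 to 0.284 over 8 pools, so the value of number 1 was the highest. These correlations cannot show whether the pools were paired by design. With the replicate number as a block, 2 members (*Cd68* and *Lyz2*) and 2424 genes passed, and *C1qa* was lost (adjusted p = 0.053). With the block over all 8 pools 2 members, *Cd68* and *C1qa* (adjusted p = 0.032), and 2088 genes passed, and *Lyz2* did not (0.0885). Depth limits *Ptprc* and *Cd74* most, with 145 and 81 read pairs in all 8 pools.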
